A study of Drosophila melanogaster with 31 samples.

Results

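The mitochondrial ribosomal protein genes were taken as every gene of the deposited count table whose symbol begins with mRpL or mRpS followed by a digit. This rule uses the names and no measured value, and it found 73 of the 17373 genes listed. By symbol, 47 belong to the large subunit and 26 to the small subunit. By a hand-written table of textbook homology, read by the number in the symbol, 45 of these proteins were listed with a counterpart in bacterial ribosomes and 28 without. They lie on every large chromosome arm, with 12 on 2L, 12 on 2R, 17 on 3L, 21 on 3R and 11 on X. The symbol does not always give the subunit: in structures of the mammalian mitoribosome the counterpart of mRpS30 sits in the large subunit.

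Mitochondria keep ribosomes of their own, which translate the few messages of the mitochondrial genome into core subunits of the respiratory chain and the ATP synthase. The RNAs of these ribosomes are made in the organelle, whereas their proteins are encoded in the nucleus, made in the cytosol and imported, so that the nuclear genes have to supply a large set of proteins together. In Drosophila, mutations in several of these genes slow larval growth, and mRpL12 is needed for the growth that Cyclin D and Cdk4 drive.

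The study sequenced mRNA of hand-dissected wing discs, the larval epithelia that form the adult wing and notum, in 6 groups of 3 libraries. Larvae of all groups carried y w with ubxflp, a recombinase driven in the discs, and on chromosome 3 a FRT82B M(3) ubiGFP arm opposite a FRT82B arm. That second arm carried no added mutation (control), cicQ474X (cic), wts149 (wts) or both mutations (cic wts), and all were larvae of the 3rd instar reared at 25 degrees. At day 5 all 4 genotypes were collected, and at day 9 only wts and cic wts discs. Each library pooled the discs of 12 to 35 larvae. The discs were mosaic: mutant clones lay among GFP-marked cells still heterozygous for a Minute mutation, which lowers cytosolic ribosome supply and slows growth, and the controls had that background too. Capicua (cic) represses genes that Ras/EGFR signalling turns on. Warts (wts) is the Hippo pathway kinase that holds back the growth co-activator Yorkie. Whether the numbered replicates were raised apart is not said, and the p-values cover only how these pools differ. In whole discs, fewer cells of a type and less RNA per cell cannot be told apart.

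Libraries held 14201662 to 26217144 counts, and 9004 genes had enough counts to be tested with edgeR's quasi-likelihood test, with p-values adjusted over all of them by the Benjamini-Hochberg method. Summed markers of the wing disc stood at 2161 to 2868 CPM over all libraries, where CPM is a gene's count relative to the counts of its library after TMM scaling. Other tissues differed between libraries of 1 group. Salivary gland markers summed to 3.63, 257 and 6137 CPM in the controls and to at most 18.7 CPM elsewhere, and hemocyte markers reached 1694 CPM in the first cic wts library of day 5 against 64.2 to 217 CPM in the other groups. The wts transcript was higher in wts than in control discs, by 1.02 ± 0.08 on the log2 scale (± SE; adjusted p = 1.12e-06), a call that held without any single library. The cic transcript was at -0.33 ± 0.12 in cic discs without passing (adjusted p = 0.252).

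Of the 73 genes, 72 passed the filter on low counts. The exception was mRpL53, which lies on 2R and had 0 counts in every library, where 3 counts would be 0.114 to 0.211 CPM; these limits cover counting error only. Its annotated span lies inside those of AGO1 and CG33155, and the sources used here do not say whether reads were counted by strand or how shared reads were treated. Among all members, 43 overlap another annotated gene. The 72 tested members had 61 to 2825 counts per library. Transcript lengths were not used here, so levels in CPM are given for each gene and not compared between genes. The 5 members with the highest mean CPM were mRpS30 (99.8), mRpL39 (55.4), mRpS7 (55.3), mRpS22 (53.9) and mRpL12 (49.9). Beside mRpL53, the lowest means belonged to mRpS24 (4.94), mRpS21 (6.25), mRpS14 (9.34) and mRpL36 (10.2).

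The set was steady across genotypes and ages. For each gene the highest of the 6 group means was divided by the lowest: this ratio ran from 1.08 for mRpL1 to 1.47 for mRpL23, with a median of 1.25. It was under 1.5 for all 72 members, against 59.3% of the 9004 genes tested, with a median over those of 1.38. Those genes were not matched to the members by level, and they include markers of salivary gland, fat body and hemocytes. How far level or such markers set this difference was not tested. The 2 gene sets that share the mitochondrial or the ribosomal part of this function were alike: 84 of 87 cytosolic ribosomal protein genes and 63 of 66 nuclear genes of oxidative phosphorylation stayed under 1.5. Within this narrow range, the groups with the highest and the lowest mean were counted. The highest group mean was that of wts day 5 for 26 members and of cic wts day 5 for 27, and neither of these groups was the lowest for any of the 72. The lowest group mean was that of wts day 9 for 41 members and of cic wts day 9 for 13. The same counts were not made over all genes, so whether this order is particular to the members is not known.

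The summed level was then read in each library, where the groups overlapped in part. All members together summed to 1963, 1883 and 1919 CPM in control discs, to 1869, 2151 and 1851 CPM in cic discs, and, still at day 5, to 1967, 2027 and 2079 CPM in wts discs and 2133, 2000 and 2003 CPM in those of cic wts. By day 9 the sums were 1782, 1696 and 1759 CPM for wts and 1778, 1829 and 1919 CPM for cic wts. Every wts library of day 9 lay below every library of day 5, and the cic wts libraries of day 9 lay below those of wts and cic wts discs at day 5 but overlapped the control and cic libraries. The second cic library was the highest of all 18 and stood apart from the others of its group. Among the cic libraries, 67 of the 72 members were highest there, a count that was not made over all genes. The 72 genes share their libraries and are not 72 replicates.

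**Figure D1:**
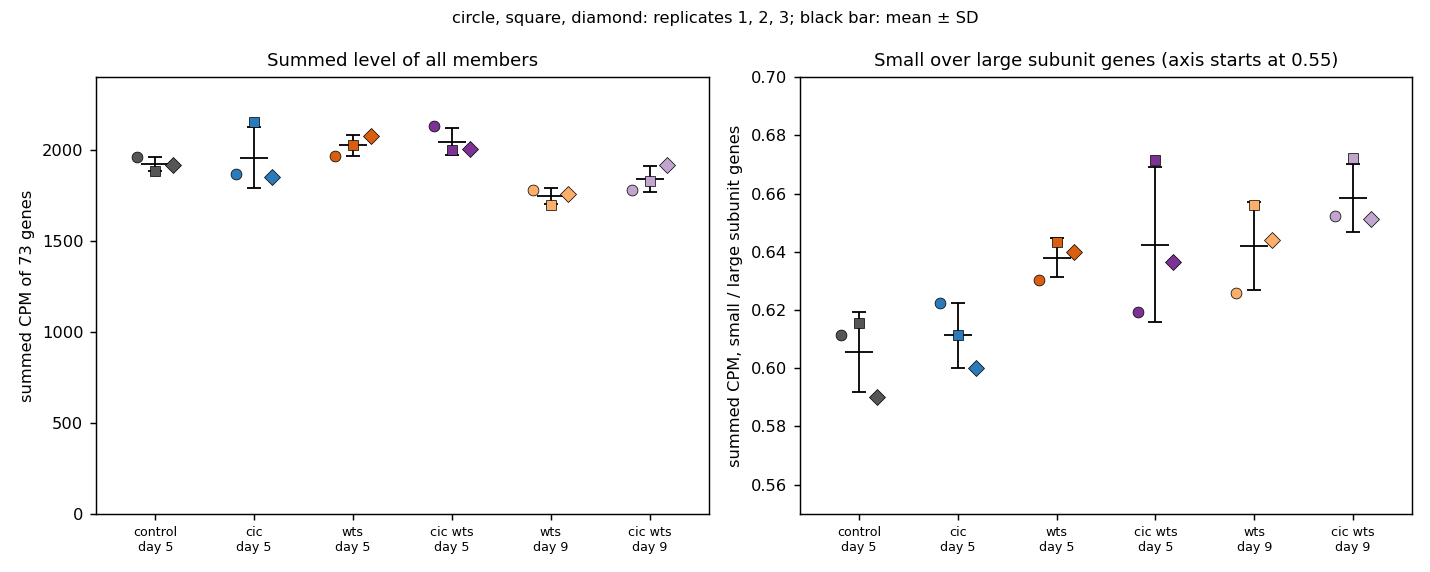
Left, summed CPM of the 73 members in each library; right, summed CPM of the small subunit genes divided by that of the large subunit genes, by group. Points are the 3 libraries and black bars the mean ± SD; the wts libraries of day 9 reach at most 1782 CPM, below all libraries of day 5, and the ratio on the right lies between 0.59 and 0.615 in the controls and between 0.651 and 0.672 in cic wts discs of day 9.

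The proportion of the 2 subunits was read next, with each gene placed by its symbol. The summed CPM of small subunit genes divided by that of large subunit genes was 0.606 ± 0.014 in control discs (mean ± SD, n = 3, as for all groups here) and 0.612 ± 0.011 in cic discs. It was 0.638 ± 0.007 in wts discs and 0.643 ± 0.027 in cic wts discs of day 5, and 0.642 ± 0.015 and 0.659 ± 0.012 in these genotypes at day 9. All 3 control libraries lay below all libraries of the 4 groups that carried wts149, while the cic libraries overlapped with cic wts discs of day 5. The controls are also the group with salivary gland transcripts, whose part in this ratio was not tested. The ratio also depends on where mRpS30 is placed, which was tried after the values were seen. Only this gene was moved, and whether other members lie outside the subunit of their symbol was not checked. With mRpS30 counted in the large subunit the ratio was 0.479 ± 0.006 in control and 0.489 ± 0.007 in cic discs, 0.509 ± 0.010 (wts) and 0.508 ± 0.030 (cic wts) at day 5, and 0.519 ± 0.013 and 0.530 ± 0.013 at day 9. The highest control, at 0.484, then lay above the lowest cic wts library of day 5, at 0.481.

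Mosaic discs with cicQ474X alone, which carry no wts149, were examined first. None of the 72 members rose or fell (0 and 0) in cic against control discs by edgeR, and DESeq2 called 0 too. Over all 9004 genes, 1.63% changed in this comparison, 0.955% upward and 0.677% downward. All 7 salivary gland markers fell in it too, and 0 markers of hemocytes, fat body, muscle, adult muscle progenitors or wing disc passed. The part of the salivary gland RNA in the members' values was not tested. At an unadjusted p under 0.05, 1 member was higher and 0 lower, and the smallest adjusted p was 0.401. The median log2 difference of the members was 0.03, beside 0.00 for all genes, and it was -0.04 without the second cic library. The design was precise enough to bound these differences between whole discs, whose share of mutant cells is not known here. With a median SE of 0.10 on the log2 scale, the 95% interval stayed within a 1.5-fold difference for 71 members and within 2-fold for all 72. The extremes were mRpL35 at -0.17 and mRpS21, counterpart of the bacterial protein S21, at 0.31. The 5 members of known wider role lay close to 0, namely mRpL12 at -0.02, mRpL55 at 0.10, mRpS30 at -0.03, mRpS35 at -0.09 and mRpS29, counterpart of the human protein DAP3, at -0.12 on the log2 scale, with adjusted p from 0.653 to 0.953.

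In wts against control discs at day 5, 1 member rose and 1 fell, and in cic wts against control discs 3 rose and 1 fell. Both counts lay below the background: of all genes 18.2% changed in wts discs, 10.0% upward and 8.16% downward, and 22.5% in cic wts discs, 11.3% upward and 11.2% downward. The 2 comparisons use the same 3 control libraries, so their values are given side by side and not as separate support. The medians over the 72 members were 0.08 in each, beside 0.00 and 0.01 for all genes. Between libraries, the median over the members had an SD of 0.07 on the log2 scale. At an unadjusted p under 0.05 by edgeR, 9 members were higher and 1 lower in wts discs, and 11 and 1 in cic wts discs. Of the 72 members, 17 (wts) and 19 (cic wts) lay below 0 and 55 and 53 above, where 49.9% and 49.0% of all genes lay below 0. DESeq2 called 1 rise and 1 fall in the first comparison and 4 rises and 1 fall in the second. Leaving out single libraries, the first count was 0 without the first control or the third wts library and 1 without any other, and the second was 2 without the second control, the third control or the second cic wts library. The 7 salivary gland markers all fell in both comparisons, as did 2 and 4 of 4 markers of adult muscle progenitors and 2 and 4 of 9 wing disc markers. In wts discs 1 of 6 fat body markers fell, and in cic wts discs 5 of 7 muscle markers fell and 1 of 8 hemocyte markers rose. Their part in the members' values was not tested; without the third control and the first cic wts library, which hold the most salivary gland and hemocyte RNA, the counts were 2 and 2. In that fit all 3 rises of cic wts against control described below were lost, and the members called were mRpL22 and mRpS5, the latter named after its value was seen.

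The member that fell in both was mRpL22 (X, 16783933 to 16785092 in release 6 coordinates), whose bacterial counterpart lines the tunnel through which new proteins leave the ribosome. Its level was 45.1, 42.9 and 43.7 CPM in the 3 control libraries, and those of cic discs held 43.4, 44.6 and 40.2 CPM. With wts149 the day 5 libraries held 35.1, 36.5 and 35.0 CPM, or, together with cicQ474X, 37.1, 29.4 and 35.3 CPM. Day 9 gave 35.9, 30.5 and 33.8 CPM for the wts genotype and 34.3, 32.2 and 32.4 CPM for the double mutant. All 6 libraries without wts149 lay at or above 40.2 CPM and all 12 libraries with it at or below 37.1 CPM, with no overlap. The gene was named because it passed in these same libraries, and such separation was not counted over all genes. Against control, the log2 change was -0.31 ± 0.09 with wts149 alone (adjusted p = 0.0225) and -0.37 ± 0.09 with both mutations (adjusted p = 0.0059). Between cic wts and cic discs it was -0.33 ± 0.09 (adjusted p = 0.0081). The last 2 calls held without any single library, with adjusted p up to 0.0308 and 0.0441, but were lost in a fit of just the libraries compared. The first was lost without the first control, the first wts or the third wts library (adjusted p up to 0.0764). The annotation gives mRpL22 no overlapping gene, and its level did not pass a test between days (adjusted p = 0.56 in wts and 0.781 in cic wts discs).

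The members that rose in cic wts against control discs were mRpS7, mRpL46 and mRpS6. For mRpS7 (2L, 10386662 to 10387652), counterpart of a bacterial protein that starts assembly of the small subunit head, the controls measured 51.9, 47.3 and 47.6 CPM and the cic wts libraries 61.3, 72.3 and 57.0 CPM, without overlap. It rose by 0.38 ± 0.11 (adjusted p = 0.0195) against control and by 0.33 ± 0.11 (adjusted p = 0.0279) against cic discs, where the libraries measured 49.5, 56.4 and 45.4 CPM. For mRpL46 (3L, 1777439 to 1778347), a protein without a bacterial counterpart, the controls measured 21.2, 19.3 and 20.7 CPM and the cic wts libraries 27.7, 26.1 and 25.5 CPM. It rose by 0.37 ± 0.10 (adjusted p = 0.0171) against control and by 0.29 ± 0.10 (adjusted p = 0.0442) against cic discs. For mRpS6 (3L, 4364550 to 4365243) the values were 9.64, 10.6 and 9.69 CPM in control and 11.7, 11.8 and 13.9 CPM in cic wts discs, a rise of 0.32 ± 0.11 (adjusted p = 0.0438). All 5 of these calls were lost without 1 library or another: that of mRpS7 against control without the second or the third control or the second cic wts library (adjusted p up to 0.108), and that of mRpL46 without the second control or the first cic wts library (up to 0.0606). That of mRpS6 was lost without the first or the third control or the second or the third cic wts library (up to 0.168). Without the third control and the first cic wts library, the 3 rises against control had adjusted p = 0.0616 for mRpS7, 0.076 for mRpL46 and 0.0934 for mRpS6. Against cic discs, mRpS7 was lost without the first or the third cic or the second cic wts library (up to 0.147) and mRpL46 without any 1 library other than the second cic library (up to 0.155).

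In wts against control discs the member that rose was mRpS11 (3R, 17072732 to 17073795), counterpart of a bacterial protein of the small subunit platform. It measured 32.2, 30.2 and 32.2 CPM in control and 36.2, 40.8 and 35.5 CPM in wts discs, a rise of 0.25 ± 0.08 (adjusted p = 0.0339) that was lost without any 1 of the 6 libraries (adjusted p from 0.0506 to 0.123). The extremes of the members that did not pass were mRpS34 at 0.37 in wts and mRpS24 at 0.42 in cic wts against control discs, chosen here after their values were seen; mRpS24 has the lowest level of the tested members.

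**Figure D2:**
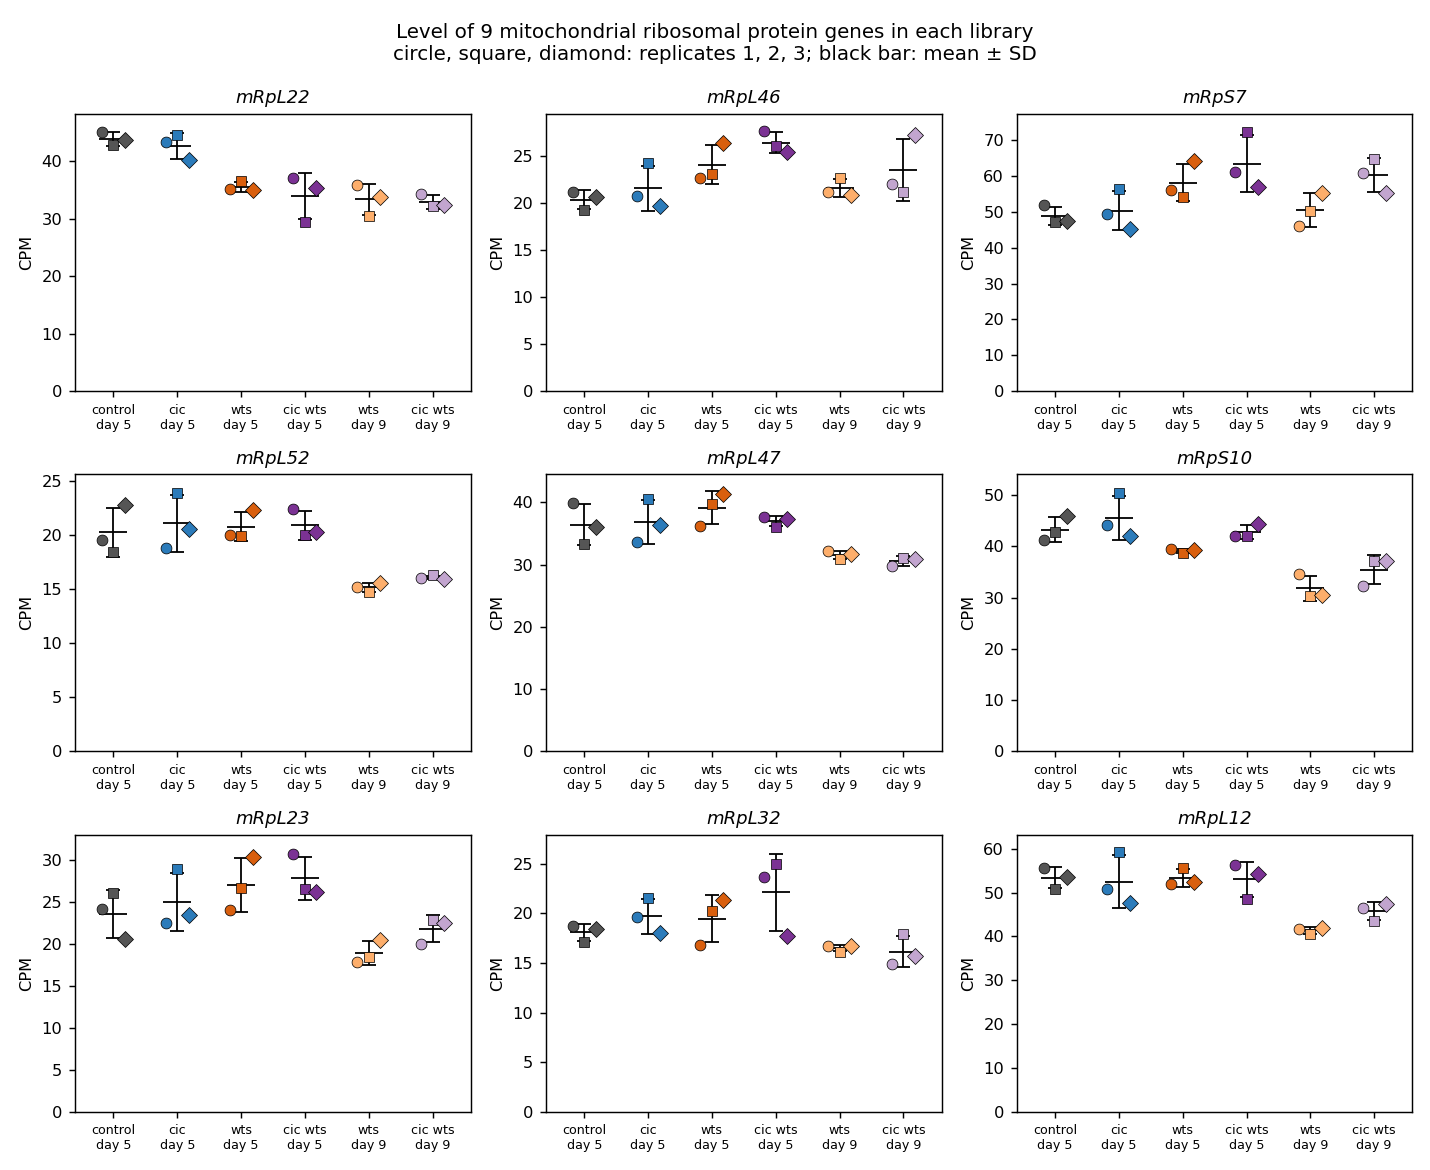
CPM of 9 members in each library by group, each axis starting at 0; points are libraries and black bars the mean ± SD. mRpL22 was at most 37.1 CPM with wts149 and at least 40.2 CPM without it. mRpL52 was at most 16.2 CPM at day 9 and at least 18.4 CPM at day 5. Both genes were named from calls in these same libraries, and such separation was not counted over all genes.

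What cicQ474X adds in mosaic discs that carry wts149 was then compared. At day 5, 0 members rose and 0 fell in cic wts against wts discs by edgeR, where 2.91% of all genes changed, 1.04% upward and 1.87% downward. DESeq2 also called 0, 0 members had an unadjusted p under 0.05, and the 95% interval of all 72 stayed within a 1.5-fold difference between whole discs. At day 9 the count was again 0 and 0 by edgeR and by DESeq2, against 6.9% of all genes, 2.89% upward and 4.01% downward. At that age 4 members were higher and 0 lower at an unadjusted p under 0.05. The median was 0.09 beside 0.01 for all genes, where the members' median had an SD between libraries of 0.07. Of the 72 members, 17 lay below 0 and 55 above, where 48.7% of all genes lay below 0. Against cic discs, 2 members rose and 1 fell in cic wts discs (mRpS7, mRpL46 and mRpL22, above), where 29.2% of all genes changed, 15.0% upward and 14.2% downward. Without the second cic library, which is high for most members, that count was 9, and without the third it was 1. In the same comparison 5 of 8 hemocyte markers, both roX RNAs and 1 of 9 wing disc markers rose, and 4 of 4 markers of adult muscle progenitors and 3 of 9 wing disc markers fell, whose part was not tested. The interaction of cic with wts at day 5, the test of whether the cic effect differs between the backgrounds, called 0 rises and 0 falls among the members, beside 0.744% and 1.2% of all genes, or 1.94% in all. DESeq2 called 0 as well, 0 and 1 members passed an unadjusted p of 0.05 upward and downward, and the median was -0.01.

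**Figure D3:**
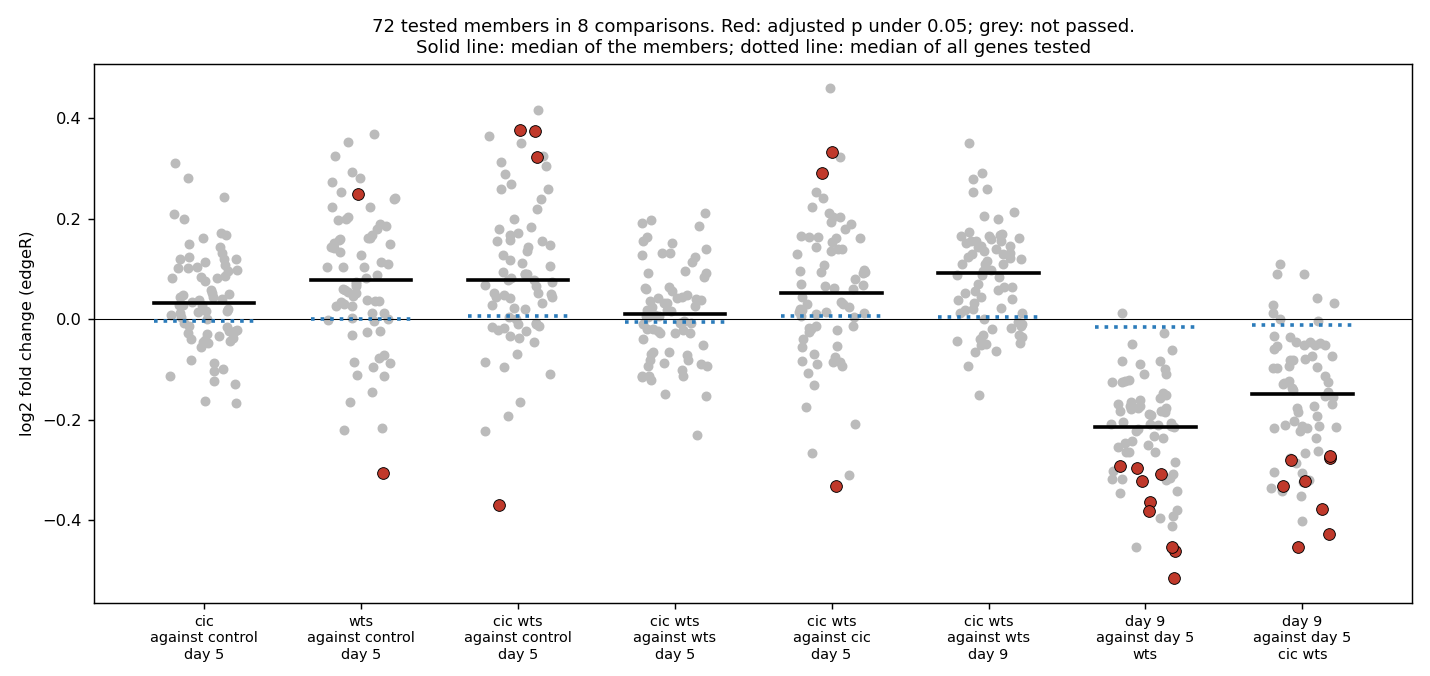
Log2 fold change of the 72 tested members in 8 comparisons; red points passed at an adjusted p under 0.05 and grey points did not, the solid line is the median of the members and the dotted line that of all 9004 genes. The medians of the members lie between 0.01 and 0.08 in the comparisons of genotypes at day 5. In both comparisons of day 9 with day 5 they lie below 0, at -0.21 and -0.15.

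Age gave more calls than any comparison of genotypes. In wts discs, 0 members rose and 9 fell from day 5 to day 9, where 2.7% of all genes fell, 4.19% rose and 6.89% changed. The median of the 72 was -0.21 on the log2 scale, a change of -13.7%, beside -0.02 for all genes. The value was below 0 for 71 of 72 members, against 52.6% of all genes. The 3 libraries of day 9 lay below all 3 of day 5 for 39 members, or 54.2%, against 16.9% of all genes, and above them for 0 members, against 17.5%. At an unadjusted p under 0.05, 35 members were lower and 0 higher, and DESeq2 called 12 falls and 0 rises.

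In cic wts discs, 0 members rose and 8 fell, where 4.54% of all genes fell, 6.06% rose and 10.6% changed. The median was -0.15, a change of -9.76%, beside -0.01 for all genes, and 64 of 72 members lay below 0, against 51.6% of all genes. The libraries did not overlap, with day 9 lower, for 25 members, or 34.7%, against 14.7% of all genes, and for 0 members with day 9 higher, against 17.2%. At an unadjusted p under 0.05, 24 members were lower and 0 higher, and DESeq2 called 11 falls and 0 rises. The counts of calls rest on single libraries. In wts discs 0 members were called without the third library of day 5 or the second of day 9, 1 without the second of day 5 and 2 without the first or the third of day 9. The count of cic wts discs was 1, 2 and 5 without the first, second or the third library of day 5, and 0, 1 and 3 without those of day 9. Without the first cic wts library of day 5, the one rich in hemocyte RNA, and the third control, the 1 member still called in cic wts discs was mRpL55. The direction rested less on single libraries. Leaving out any 1 library, the median ran from -0.23 to -0.19 (wts) and from -0.19 to -0.12 (cic wts), and the number of members below 0 from 70 to 72 and from 57 to 68.

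Both ages were sampled for these 2 genotypes in separate libraries, so the comparisons share none. Of the 72 members, 64 were lower at day 9 in both, 88.9% against 38.0% of all genes, 7 were lower in wts discs alone and mRpL28 was above 0 in both. The 3 members called in both were mRpL52, mRpL47 and mRpS10, which make up 33.3% of the calls in wts and 37.5% of those in cic wts discs, with 14 members called in either. Of these 3, mRpL47 and mRpS10 lie outside the naming rule and are given after their values were seen. The difference between the 2 age effects was itself tested as the interaction of cic with day. It called 0 members by edgeR and 0 by DESeq2, with 3 above and 0 below 0 at an unadjusted p under 0.05, and 0.0% of all genes passed. The median of the interaction was 0.07, beside 0.01 for all genes.

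For mRpL52 (2R, 7673721 to 7674400), a protein without a bacterial counterpart, wts discs measured 20.0, 19.9 and 22.3 CPM at day 5 and 15.2, 14.7 and 15.5 CPM at day 9, and cic wts discs 22.4, 20.0 and 20.2 CPM and then 16.0, 16.2 and 15.9 CPM. All 6 libraries of day 9 lay below all 12 of day 5, a separation that was not counted over all genes. It fell by 0.45 ± 0.10 (adjusted p = 0.0156) in wts and, with both mutations, by 0.38 ± 0.10 (adjusted p = 0.0259). The first call was lost without the third library of day 5 or the second of day 9 (adjusted p up to 0.0871), and the second without the first library of day 5 or any 1 of day 9 (up to 0.106). For mRpL47 (3R, 9514822 to 9515908), counterpart of the bacterial protein L29 beside the tunnel exit, wts discs measured 36.3, 39.8 and 41.4 CPM at day 5 and 32.2, 31.0 and 31.7 CPM at day 9. The cic wts libraries held 37.6, 36.1 and 37.3 CPM and then 29.7, 31.1 and 30.9 CPM, again with no overlap between days. It fell by 0.31 ± 0.08 (adjusted p = 0.0356) and by 0.28 ± 0.08 (adjusted p = 0.0428), calls that were lost without 5 and 6 of the 6 libraries each (adjusted p up to 0.151 and 0.171). Its annotated span overlaps that of Rlb1.

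For mRpS10 (3R, 15229665 to 15230516), a small subunit protein with a bacterial counterpart, wts discs measured 39.4, 38.8 and 39.2 CPM at day 5 and 34.7, 30.3 and 30.6 CPM at day 9. The double mutant gave 42.1, 42.1 and 44.4 CPM and then 32.3, 37.1 and 37.1 CPM. Its 6 libraries of day 9 were all below its 12 of day 5, the lowest of which was 38.8 CPM. Such a separation was not counted over all genes. The mRpS10 gene fell by 0.30 ± 0.08 (adjusted p = 0.0433) and by 0.27 ± 0.08 (adjusted p = 0.0461). These calls were lost without 5 and 6 of the 6 libraries each (adjusted p up to 0.148 and 0.224).

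The largest fall in wts discs was that of mRpL23 (3L, 2372844 to 2373704), whose bacterial counterpart stands at the mouth of the exit tunnel. It measured 24.1, 26.6 and 30.4 CPM at day 5 and 17.8, 18.4 and 20.5 CPM at day 9, a fall of 0.51 ± 0.12 (adjusted p = 0.0222). Next came mRpL36 (3L, 8124584 to 8125132), a short protein with a bacterial counterpart, at 11.9, 10.6 and 12.0 CPM and then 9.08, 7.59 and 8.38 CPM, which fell by 0.46 ± 0.12 (adjusted p = 0.0351). Neither gene's libraries overlapped between days. With both mutations mRpL23 was at -0.35 (adjusted p = 0.0722) and mRpL36 at -0.05 (adjusted p = 0.822), and the interaction passed for neither (adjusted p = 0.923 and 0.738). Of the other named falls, mRpL21 (3L, 19253290 to 19255061) went from 21.3, 25.7 and 23.9 CPM to 16.3, 19.4 and 18.7 CPM, by 0.38 ± 0.11 (adjusted p = 0.0442).

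The factor-binding stalk protein gene mRpL12 (3L, 8956791 to 8957584) measured 51.9, 55.6 and 52.4 CPM in wts discs at day 5 and 41.7, 40.5 and 42.0 CPM at day 9. It was among the tightest of these falls, by 0.36 ± 0.08 (adjusted p = 0.0174), with all day 9 libraries below the control range of 50.9 to 55.6 CPM as well. For cic wts discs it stood at 56.2, 48.5 and 54.3 CPM and then at 46.4, 43.6 and 47.4 CPM, without overlap but without passing (-0.21, adjusted p = 0.104). The calls of mRpL23, mRpL21 and mRpL12 in wts discs were lost without 4, 5 and 5 of the 6 libraries and that of mRpL36 without any 1 of them, among them the third of day 5 and the second of day 9 in each case (adjusted p up to 0.116, 0.162, 0.0744 and 0.132). The other calls in wts discs, mRpS11 at -0.32 and mRpL17 at -0.29, lie outside the naming rule and are named after their values were seen. The annotated span of mRpL23 overlaps that of CG8993, and that of mRpL17 overlaps CG34263.

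In cic wts discs the largest fall was that of mRpL32 (3R, 31252872 to 31253686), which measured 23.7, 25.0 and 17.7 CPM at day 5 and 14.9, 17.9 and 15.7 CPM at day 9. The third library of day 5 lay within the range of day 9, and the fall was 0.45 ± 0.12 (adjusted p = 0.0324). Its annotated span overlaps that of CG1750. For mRpL20 (3L, 13017149 to 13017867), counterpart of a bacterial protein needed early in large subunit assembly, the values were 31.1, 29.1 and 26.7 CPM and then 20.1, 20.9 and 23.6 CPM, a fall of 0.43 ± 0.12 (adjusted p = 0.0334). In wts discs the same genes were at -0.24 (adjusted p = 0.257) and -0.39 (adjusted p = 0.0567). The gene mRpL55 (3R, 19094394 to 19094905), which is required for larval development in Drosophila, measured 14.6, 17.5 and 16.5 CPM and then 12.8, 13.1 and 12.7 CPM. It fell by 0.33 ± 0.09 (adjusted p = 0.0313), and in wts discs it was at -0.31 (adjusted p = 0.0535).

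Last of the named falls in cic wts discs, mRpL30 (X, 4647871 to 4648646) went from 46.7, 43.6 and 43.8 CPM to 34.4, 38.2 and 34.7 CPM, by 0.32 ± 0.09 (adjusted p = 0.0352), and its annotated span overlaps that of Torsin. The remaining call was that of mRpL37, at -0.28 (adjusted p = 0.0218), also named after its value was seen. Without single libraries, the calls of mRpL32 and mRpL20 were lost in 4 of 6 fits each, that of mRpL55 in 5 and that of mRpL30 in 6 (adjusted p up to 0.155, 0.155, 0.122 and 0.155). The first library of day 9 was among those that each of these calls needed. Other members of wider role were not called: mRpS30 (X, 15786047 to 15788288) was at -0.28 (adjusted p = 0.0584) in wts discs and -0.27 (adjusted p = 0.0605) with both mutations, and mRpS35 at -0.21 and -0.14. The mRpS29 gene was at -0.10 in wts and 0.09 in cic wts discs, neither of which passed (adjusted p = 0.476 and 0.504).

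**Figure D4:**
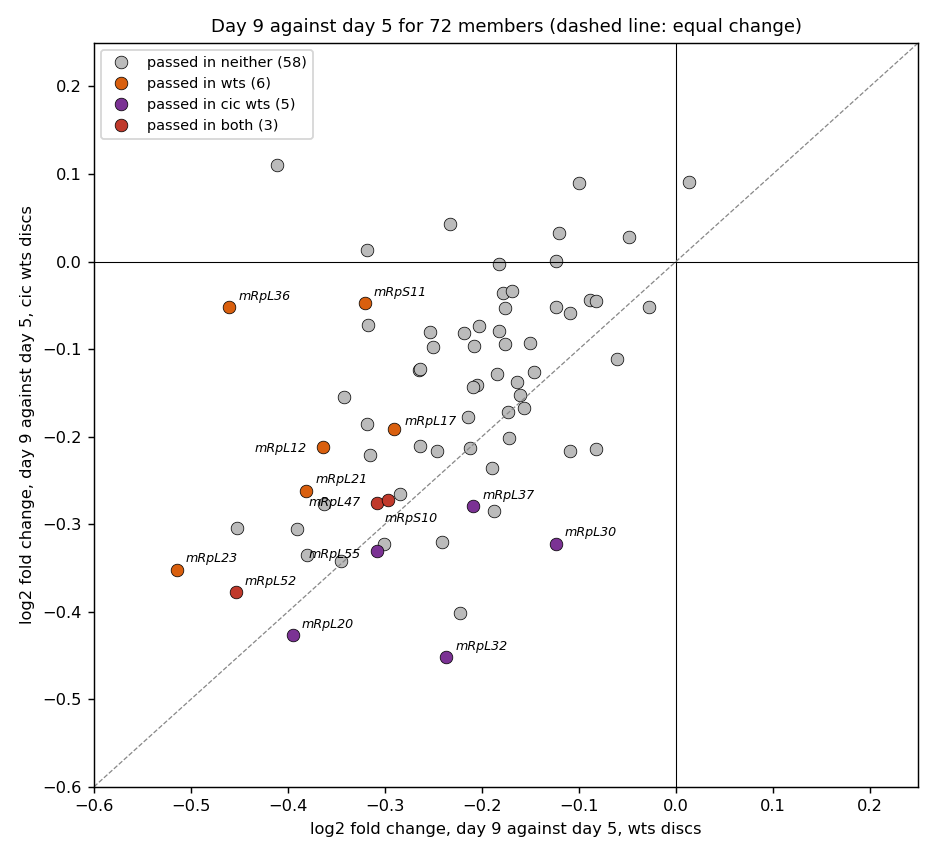
Log2 fold change from day 5 to day 9 of the 72 tested members in wts discs (horizontal) and cic wts discs (vertical), coloured by the comparison in which a gene passed; the dashed line marks equal change. Most points, 64 of 72, lie below 0 on both axes, and 3 passed in both genotypes.

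Calls with age were then counted by class within the ribosome, where 2.7% of all genes fell in wts and 4.54% in cic wts discs. In wts discs 7 of 46 large subunit and 2 of 26 small subunit genes fell, with medians of -0.22 and -0.21. Of the cic wts calls the counts were 7 of 46 and 1 of 26, with medians of -0.18 and -0.12. Of the genes listed with a bacterial counterpart 8 of 45 fell in wts discs and 5 of 45 with both mutations, and of those listed without one 1 of 27 and 3 of 27. Members whose span overlaps another gene had medians of -0.21 (wts) and -0.13 (cic wts), and those without overlap -0.24 and -0.17. On the arms, medians in wts discs ran from -0.18 on 2L to -0.25 on 3L, and 0 of the 12 members on 2L were called in either genotype. No difference between these classes was tested.

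Genes that work with the mitoribosome were read in the same fit. Of 2 mitoribosomal protein genes that carry other names, tko, the S12 protein of the decoding site, measured 32.4, 34.3 and 39.5 CPM in wts discs at day 5 and 27.4, 25.5 and 28.9 CPM at day 9, a fall of 0.38 ± 0.10 (adjusted p = 0.0317). For tko the cic wts value was -0.25 (adjusted p = 0.117). The S15 protein gene bonsai fell by 0.31 ± 0.09 (adjusted p = 0.0468) in cic wts discs, from 46.8, 44.5 and 42.3 to 35.0, 36.2 and 36.5 CPM, and was at -0.28 (adjusted p = 0.0817) in wts discs. Both falls were lost without most single libraries (adjusted p up to 0.153 for tko and 0.175 for bonsai).

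The medians of other mitochondrial lists also lay below 0 with age. As background for their calls, 2.7% of all genes fell in wts and 4.54% in cic wts discs. Of the nuclear genes of oxidative phosphorylation, 0 rose and 12 of 66 fell in wts discs (median -0.22), and 0 rose and 5 of 66 fell in cic wts discs (median -0.13). The cytochrome c oxidase subunit gene COX7C fell by 0.52 ± 0.09 (adjusted p = 0.00609) and by 0.44 ± 0.09 (adjusted p = 0.00942), from 71.3, 86.7 and 88.0 to 60.1, 55.4 and 56.5 CPM in wts discs; these calls were lost without the third library of day 5 (adjusted p = 0.0504) and without the first cic wts library of day 9 (adjusted p = 0.0688). Of 10 import genes 2 fell in each genotype, among them Tom40, the channel of the outer membrane, by 0.27 ± 0.06 (adjusted p = 0.0176) and 0.25 ± 0.06 (adjusted p = 0.0176), calls that were lost without 4 and 3 of the 6 libraries (up to 0.0765 and 0.0964). The medians of the 16 mitochondrial aminoacyl-tRNA synthetase genes were -0.19 and -0.07, with 0 and 2 falls by edgeR and 1 and 3 by DESeq2, and at an unadjusted p under 0.05 they held 6 and 3 lower values. Of the 14 RNAs encoded in the mitochondrial genome 0 rose or fell in either, with medians of -0.21 and -0.37, while 2 and 3 were lower at an unadjusted p under 0.05 and DESeq2 called 1 and 2 falls.

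The cytosolic ribosome was read beside it. Of 87 cytosolic ribosomal protein genes 0 rose and 5 fell with age in wts discs (median -0.12), and 0 rose and 0 fell in cic wts discs (median 0.01), where DESeq2 called 4 falls and 5 were lower at an unadjusted p under 0.05. At day 5 their direction was upward in wts discs: 15 rose and 0 fell against control (median 0.16), beside the 1 rise and 1 fall of the 72 mitochondrial genes, and 18 rose and 1 fell in cic wts discs (median 0.14). Over all genes, 10.0% rose and 8.16% fell in the first comparison, and 11.3% rose and 11.2% fell in the second. Examples of the cytosolic genes in wts discs were RpL15, which rose by 0.56 ± 0.09 (adjusted p = 0.00058), and RpS3A, which rose by 0.42 ± 0.08 (adjusted p = 0.00161). The gene for Myc, a transcription factor that activates ribosome genes, rose against control by 0.66 ± 0.09 (adjusted p = 0.000184) with wts149 alone and by 0.72 ± 0.09 (adjusted p = 4.64e-05) with both mutations, and among the 12 regulators listed 3 rose in each. It measured 172, 192 and 174 CPM in control and 291, 269 and 289 CPM in wts discs. From day 5 to day 9 the group mean of Myc went from 283 to 336 CPM (wts) and from 296 to 327 CPM (cic wts). Its mean was thus not lower at day 9, though libraries of the 2 days overlapped in each genotype. Whether Myc has a part in the levels of either ribosomal list was not tested. The difference between the cytosolic and the mitochondrial list was not tested.

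**Figure D5:**
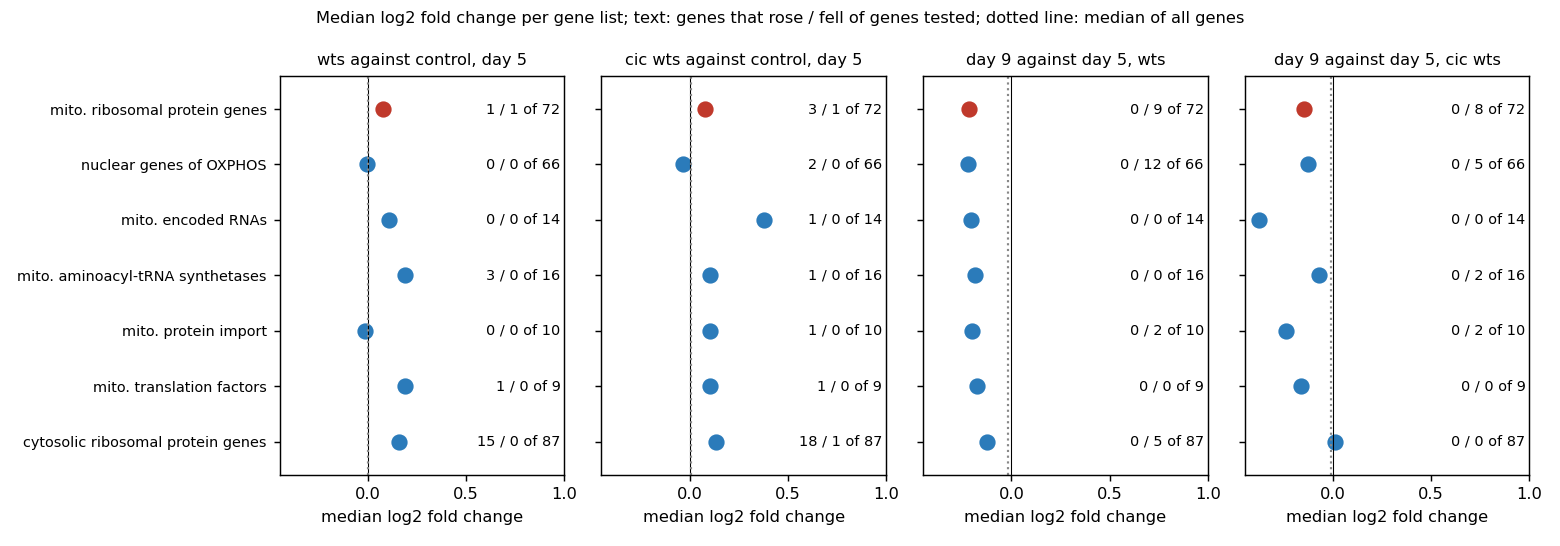
Median log2 fold change of the mitochondrial ribosomal protein genes (red) and of 6 related lists (blue) in 4 comparisons, with the number of genes that rose, fell and were tested printed at the right of each panel; the dotted line is the median of all genes tested. The mitochondrial ribosomal list lies at 0.08 in both comparisons with control and at -0.21 and -0.15 with age, where the cytosolic list lies at -0.12 and 0.01.

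Among the translation factors, 1 gene passed in cic against control discs, while 0 of 9 passed in cic wts against wts discs at day 5. The initiation factor gene mIF3 (listed as CG13163; 2R, 12321238 to 12322797), whose product keeps the small subunit free for initiation, measured 15.7, 15.5 and 16.8 CPM in control and 38.4, 56.5 and 30.3 CPM in cic discs. The day 5 libraries with wts149 held 13.3, 13.9 and 14.3 CPM without and 16.5, 16.9 and 14.4 CPM with the cic mutation. Every cic library was above every other library, and the gene rose by 1.38 ± 0.16 (adjusted p = 0.000217) in cic against control discs, the 1 rise among 9 translation factor genes tested. It fell by 1.39 ± 0.16 (adjusted p = 1.32e-05) in cic wts against cic discs, and its interaction term for the 2 mutations was -1.18 ± 0.23 (adjusted p = 0.0135). The rise, the fall and the interaction all use the same cic libraries and are not separate support. The rise and the interaction held without any single library (adjusted p up to 0.00264 and 0.0421) and were lost in a fit of just the libraries compared. Its annotated span overlaps that of CG8841, and reads of the 2 genes may not be told apart.

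Markers of other tissues also differed between the ages. In cic wts discs 3 of 6 fat body markers, 2 of 7 muscle markers and 1 of 8 hemocyte markers fell from day 5 to day 9, and in wts discs 1 of 7 muscle markers fell. Of 4 markers of adult muscle progenitors, 1 rose in wts discs and 2 with both mutations, and their sums at day 9 lay above all those of day 5 in each genotype, with medians of 153 and then 224 CPM in wts and of 93.1 and then 166 CPM in cic wts discs. Of 9 wing disc markers 0 rose and 1 fell in wts, and 2 rose and 2 fell in cic wts discs. Summed muscle markers ranged from 53.0 to 125 CPM at day 5 and from 8.01 to 22.6 CPM at day 9 in wts discs, and from 7.05 to 117 CPM and from 2.3 to 7.41 CPM in cic wts discs; all 7 were detected in every group. Summed fat body markers ranged from 5.17 to 26.7 CPM and then 12.9 to 220.1 CPM in wts discs, and from 3.25 to 622.8 CPM and then 0.968 to 13.1 CPM in cic wts discs. The male-specific roX RNAs summed to 596 to 740.2 CPM and then 474 to 686.5 CPM in wts discs, and to 450 to 1112 CPM and then 231 to 442 CPM in cic wts discs. The part of these in the age differences was not tested.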

How the data were processed

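The values were raw counts by gene, deposited by the authors as a single table that covers 18 RNA libraries; samples of ChIP-nexus were not used here. TruSeq reagents for mRNA were used, per the labels' protocols. The submitters' processing notes list dm6, HTSeq, TopHat2, Bowtie2 and DESeq2 without a version, a role or a strand setting. Members and lists were chosen with earlier results of these data known.

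All 9004 genes that passed filterByExpr entered 1 quasi-likelihood model of edgeR 4.0.16 under R 4.3.3, with TMM factors and a term for each of the 6 groups, and 10 comparisons were read from it at a Benjamini-Hochberg adjusted p under 0.05. The SE of a log2 change was derived from its F value. Dispersion, as the common biological coefficient of variation, was 0.185. CPM were derived here from TMM-scaled sizes. No replicates were duplicates: their chi-square per degree of freedom was 10.4 to 58.9. Alternatives were RLE and total-count scaling, no filter, DESeq2 1.42.0, a replicate block, only the libraries compared, and each library left out. Another left out the third control and the first cic wts library of day 5, in comparisons that use these groups. Age in wts discs had no such fit. Other libraries with carry-over were kept, such as the second cic wts library of day 5 with 622.8 CPM of fat body markers. Placing mRpS30 in the large subunit was added after seeing the data.

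All 73 member symbols matched the release 6 gene table, which gave positions and overlaps. Subunits follow the symbol, and bacterial counterparts a hand-written table of textbook homology. Members were named by rule: the 5 largest rises and falls past the threshold per comparison, the 5 highest and lowest levels, members removed by the filter, those called in both comparisons with control at day 5, mRpL12, mRpS30, mRpL55, mRpS29 and mRpS35, and up to 4 genes of each other list per comparison.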

Additional observations from a re-analysis of the deposited data

Results flagged for a closer look

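For the small subunit gene mRpS14 (X, 19479382 to 19480238), every cic wts library lay below every wts library at day 5 and above every wts library at day 9. The wts libraries held 10.3, 10.2 and 9.79 CPM of it at day 5 and 8.29, 7.44 and 7.03 CPM at day 9. For the double mutant these were 9.5, 7.82 and 8.46 CPM and then 8.47, 8.82 and 10.6 CPM. The difference between the cic effects at the 2 ages was 0.52 ± 0.19 on the log2 scale (± SE), and its test, the interaction of cic with day, did not pass (edgeR, adjusted p = 0.681). The gene overlaps CG32533 and Naa15-16 in the annotation and had 140 to 277 counts per library. It was named after its values were seen.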

How the results depend on the processing

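Across all alternatives, 0 of the 26 calls of members reversed direction, but 24 were lost without at least 1 library and 19 were lost in most of these fits. The 2 that held without any 1 library were mRpL22 in cic wts against control and against cic discs, and both were lost with only the libraries compared in the fit. Counts of called members in wts against control discs (main 2) were 1 with total-count scaling, 1 without the filter and 1 with only the libraries compared. In cic wts against control (main 4) they were 1 with only the libraries compared and 2 without the third control and the first cic wts library of day 5. In cic wts against cic discs they were 1 with total-count scaling and 0 with only the libraries compared (main 3). With age they were 4 without the filter in wts discs (main 9). In cic wts discs (main 8) the age counts were 3 without the filter and 4 with only the libraries compared. Without the third control and the first cic wts library of day 5, that count was 1. Leaving out 1 library, counts ran from 0 to 1 in wts against control, 2 to 5 in cic wts against control, 1 to 9 in cic wts against cic, 0 to 7 with age in wts and 0 to 5 with age in cic wts discs, and stayed at 0 in the other 5 comparisons. The median of cic against control ran from -0.04 to 0.08 in these fits. The cause of these changes was not tested. Total-count scaling split the calls 0 up and 1 down in wts against control (main 1 and 1), 2 and 1 in cic wts against control (main 3 and 1) and 0 and 1 in cic wts against cic discs (main 2 and 1). Scalings moved the median of all genes by at most 0.06 (log2).

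With the replicate number as a block the counts were 3 in wts against control, 5 in cic wts against control, 2 in cic wts against cic, 8 with age in wts, 6 with age in cic wts discs, and 0 in the others; of the 3 members called with age in both genotypes, mRpL52 alone was called in both with the block. The numbers were not taken as pairs: 15 of 45 same-numbered pairs of libraries correlated above 0.1 (range -0.139 to 0.442), and 12 of 18 libraries correlated best with their own number, a hint from the data and not the design.

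At 61 counts and more per member, depth limits the lowest members most. Each group has 3 libraries, and no control or cic discs of day 9 were analysed here.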
